A study of Arabidopsis thaliana with 17 samples.

Results

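The genes described here are 10 Arabidopsis thaliana genes of xylem vessel differentiation and secondary wall formation: VND6 (AT5G62380), VND7 (AT1G71930), MYB46 (AT5G12870), MYB83 (AT3G08500), CESA4 (AT5G44030), CESA7 (AT5G17420), CESA8 (AT4G18780), COBL4 (AT5G15630), XCP1 (AT4G35350) and XCP2 (AT1G20850). They were chosen by locus from a table of 33201 entries, and each of the 10 stood in it as an entry of its own. RNA came from root cells of plants carrying pSCR:SCR-mCherry, a fusion of the transcription factor SCARECROW to a red fluorescent protein under the SCARECROW promoter, which is active in the endodermis and the stem cell niche. All groups carried this transgene, and no group without it was analysed here. The cells were either isolated from the root or bioprinted, that is, laid down with a carrier gel by a printer to form a construct. The 6 groups were isolated cells of differentiated tissue at day 0 (3 libraries), constructs of that tissue, 3 libraries at day 0, 3 at day 1 and 2 at day 3, and isolated cells (3) and constructs (3) of tissue labelled meristematic at day 0. The labels give neither plant age nor which libraries share plants, so q-values may measure technical spread only.

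Xylem vessels are water-conducting tubes made of cells that deposit a thick secondary wall of cellulose, xylan and lignin and then die and empty themselves. In Arabidopsis, the NAC transcription factors VND6 and VND7 switch on this program in metaxylem and protoxylem vessels, respectively. They act in large part through MYB46 and MYB83, which in turn activate genes for wall polymers, while proteases such as XCP1 and XCP2 digest the cell contents. In a root, this program runs in the vascular cylinder above the meristem.

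Levels are given as FPKM, fragments scaled to transcript length and to the number of mapped fragments, which can be compared between genes. The authors deposited 1 pooled FPKM per group and a q-value for each of 7 comparisons. Values per library could not be tied to genes, since a line of the deposited library table stands for different genes in different columns, so pooled values carry no SD. Folds below are ratios of pooled FPKM. A gene was called changed where the authors' q was under 0.05 and its FPKM reached 1 on at least 1 side of the comparison. A gene under that FPKM on both sides was left untested. The smallest q in the table is 0.000551. Read totals are unknown. Summed FPKM ran from 671184 to 996810 over the 17 libraries, and 14756 to 16946 genes per library reached an FPKM of 1. The highest sum and the fewest such genes were both in replicate 3 of the isolated meristematic cells. There, 8.34% of all FPKM lay in the top 10 values, a share that was 4.61% in replicate 1 of that group and 4.13% in replicate 2. The pooled group values used below summed to between 741440, in the day 3 constructs, and 1234075, in isolated meristematic cells. The latter is above the sum of every single library. Folds below were not corrected for these sums unless a rescaling is named.

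The 10 genes spanned a wide range of levels before any time in culture. In the 4 groups at day 0, XCP1 and XCP2 were the highest, with pooled FPKM between 105 and 187. CESA4, CESA7 and CESA8 lay between 6.60 and 16.5, MYB46 between 8.19 and 16.2 and COBL4 between 3.65 and 7.01. VND7 (1.29 to 3.46) and MYB83 (1.45 to 2.45) were low, and VND6 was under 1 in all 4 groups (0.344 to 0.701). The proteases thus held most of the summed FPKM of the 10 genes, from 83.0% in isolated differentiated cells to 86.1% in differentiated constructs at day 0.

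**Figure D1:**
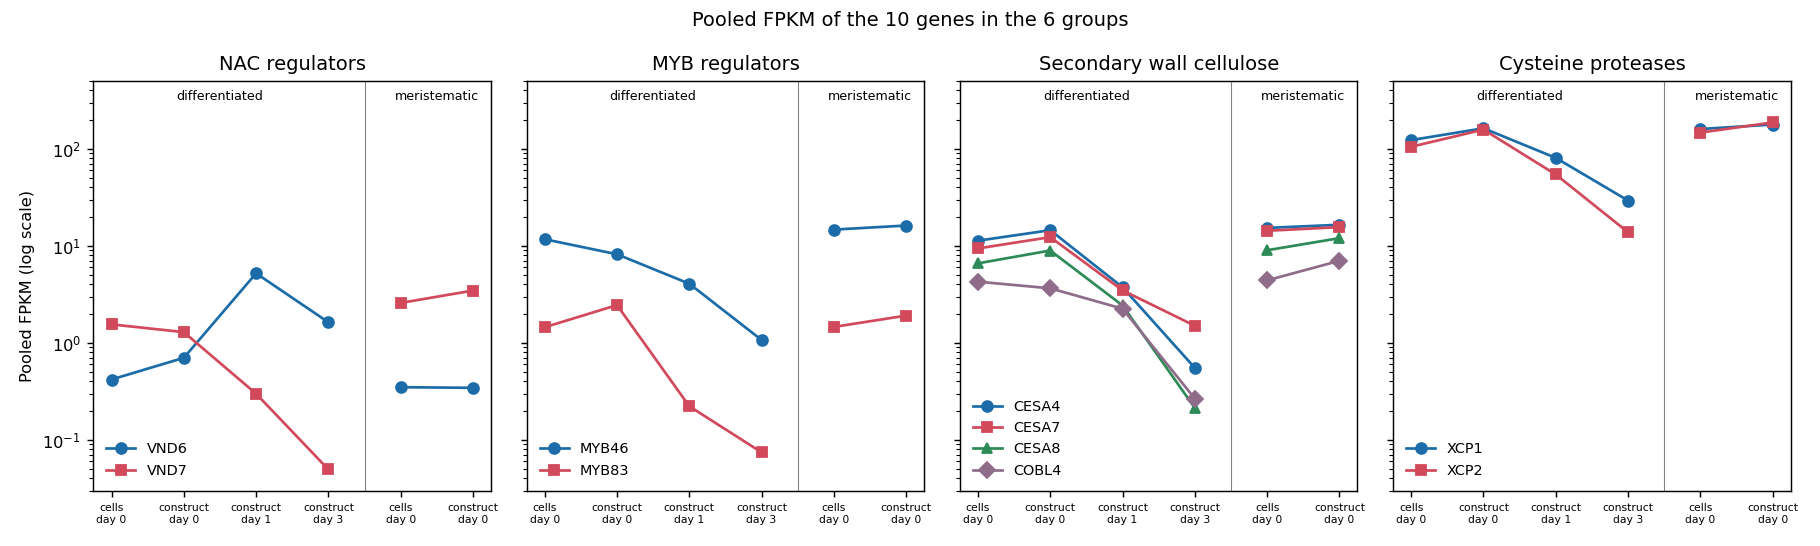
Pooled FPKM on a log axis for the 10 genes in the 6 groups, in 4 panels by role; each point is 1 group's pooled value, and no error is available. Lines join groups of 1 tissue. From day 0 to day 3 all genes but VND6 go down in the differentiated constructs, XCP2 from 158 to 13.8 and CESA8 from 8.95 to 0.213, while VND6 goes from 0.701 to 5.21 at day 1 and 1.63 at day 3.

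The largest differences were over time in the construct. In differentiated tissue, the secondary wall cellulose synthases and the vessel proteases fell from day 0 to day 1, and all but CESA7 fell again from day 1 to day 3, while VND6 rose at day 1. By the authors' q, 6 of the 10 genes were lower at day 1 than at day 0 and 1 was higher, all 10 being tested. Over all 17993 entries tested in that comparison, 16.4% were lower and 16.2% higher. Between day 0 and day 3, 7 of 10 were lower and none higher, where 21.2% of 18372 entries were lower and 21.0% higher. Between day 1 and day 3, 7 of the 8 tested genes were lower, against 8.48% lower and 5.88% higher among 17611 entries. That count of 7 was 4 at a q threshold of 0.01 and 3 with an FPKM minimum of 5. The median log2 ratio of the 10 genes was -1.68 at day 1 over day 0 and -3.64 at day 3 over day 0, beside medians over all tested entries of 0.06 and 0.05. For the 8 genes tested at day 3 over day 1 it was -1.95, beside -0.03. The 3 comparisons share libraries, the day 0 constructs standing in 2 of them.

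VND6, the metaxylem regulator, was barely present in the day 0 constructs, with a pooled FPKM of 0.701, and stood at 5.21 on day 1 and 1.63 on day 3. It rose 7.43-fold to day 1 (q 0.00932 in the authors' deposited table) and fell 3.20-fold from day 1 to day 3 (q 0.0350 in the authors' deposited table). Its level at day 3 was 2.32 times that at day 0 and was not called (q 0.300 in the authors' deposited table). The size of the rise to day 1 rests on a day 0 level under 1. With a pseudocount of 1 the log2 ratio of that rise went from 2.89 to 1.87. VND6 was the only gene of the 10 whose highest level was in a cultured construct. By its annotation, VND6 overlaps the end of BAG7 (AT5G62390), a co-chaperone gene with a pooled FPKM of 226, 212 and 167 at days 0, 1 and 3, which differed 1.06-fold between days 0 and 1 (q 0.880 in the authors' deposited table). The sources used here do not say whether the authors' counting used the strand.

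VND7, the protoxylem regulator, had its lowest levels in the cultured constructs. Its pooled FPKM stood at 1.29 on day 0 and was 0.299 and 0.0495 on days 1 and 3. Neither the 4.32-fold difference to day 1 (q 0.0778 in the authors' deposited table) nor the 26.1-fold difference to day 3 (q 0.206 in the authors' deposited table) was called. From day 1 to day 3 VND7 was under the tested level. The FPKM of VND6 was 0.543 times that of VND7 at day 0, and 17.4 and 32.8 times at days 1 and 3. The sizes at days 1 and 3 rest on VND7 levels well under 1. From day 1 to day 3 VND6 itself fell 3.20-fold, so the larger ratio at day 3 rests on the VND7 level of 0.0495. These ratios were not tested.

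MYB46 and MYB83 act redundantly downstream of the NAC factors. MYB46 had a pooled FPKM of 8.19, 4.07 and 1.07 at days 0, 1 and 3. Its 2.01-fold lower level at day 1 just missed the threshold (q 0.0512 in the authors' deposited table), while it fell 3.82-fold from day 1 to day 3 (q 0.0446 in the authors' deposited table) and 7.68-fold from day 0 to day 3 (q 0.00479 in the authors' deposited table). MYB83 stood at 2.45, 0.222 and 0.0743. It fell 11-fold to day 1 (q 0.0156 in the authors' deposited table), and the 33.0-fold difference to day 3 was not called (q 0.109 in the authors' deposited table). With both its later levels well under 1, the size of the MYB83 fold rests on very low values.

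CESA4, CESA7 and CESA8 encode the 3 catalytic subunits of the cellulose synthase complex of secondary walls. CESA4 had a pooled FPKM of 14.5 at day 0, 3.74 at day 1 and 0.552 at day 3. CESA7 had 12.3, 3.48 and 1.5, and CESA8 had 8.95, 2.43 and 0.213. All 3 fell to day 1 by similar factors, 3.88-fold, 3.53-fold and 3.68-fold, each with the smallest q of 0.000551 in the authors' deposited table. From day 1 to day 3, calls differed among the 3 genes, and the differences between them were not tested. CESA8 fell 11.4-fold (q 0.00144 in the authors' deposited table) and CESA4 fell 6.77-fold (q 0.00387 in the authors' deposited table), whereas CESA7 was 2.32-fold lower and not called (q 0.124 in the authors' deposited table). The sizes for CESA8 and CESA4 rest on day 3 levels under 1. With a pseudocount of 1 the log2 ratio went from -3.52 to -1.5 for CESA8 and from -2.76 to -1.61 for CESA4, which turned their order. Over the 3 days the falls were 26.3-fold for CESA4, 8.18-fold for CESA7 and 42.1-fold for CESA8, each at the smallest q of 0.000551 in the authors' deposited table.

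The proportions among these 3 subunits were alike in 5 groups and differed in 1. CESA4 held between 37.3% and 41.4% of their summed FPKM in all groups but the day 3 constructs, CESA7 between 34.3% and 37.0%, and CESA8 between 23.4% and 27.3%. In the day 3 constructs CESA4 held 24.4%, CESA7 66.2% and CESA8 9.39% of a sum of 2.26 FPKM, against a sum of 35.7 at day 0. No error can be given for these shares, and the difference was not tested.

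CESA4, CESA7, CESA8 and XCP1 overlap other annotated genes at an end. The gene before CESA4 on the same strand, AT5G44020, had a pooled FPKM of 1094 at day 0, 181 at day 1 and 29.9 at day 3, and so fell 36.6-fold over the same days (q 0.000551 in the authors' deposited table). Its part in the CESA4 value was not tested. The coding neighbour of CESA7, AT5G17410, went from 2.94 at day 0 to 5.79 at day 3 and was not called (q 0.383 in the authors' deposited table). That of CESA8, MYB98, was under 0.2 in all 6 groups.

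COBL4, an anchored wall protein needed for secondary wall cellulose, had a pooled FPKM of 3.65, 2.25 and 0.266 at days 0, 1 and 3. The 1.62-fold lower level at day 1 was not called (q 0.227 in the authors' deposited table). COBL4 then fell 8.46-fold to day 3 (q 0.0334 in the authors' deposited table), and 13.7-fold from day 0 to day 3 (q 0.0163 in the authors' deposited table).

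XCP1 and XCP2 encode papain-like cysteine proteases that break down the contents of dying vessel elements. XCP1 had a pooled FPKM of 163, 80.7 and 29.3 at days 0, 1 and 3, and XCP2 had 158, 54.4 and 13.8. XCP1 fell 2.02-fold to day 1 (q 0.00932 in the authors' deposited table) and 5.58-fold to day 3 (q 0.000551 in the authors' deposited table). XCP2 fell 2.90-fold and 11.4-fold, both at q 0.000551 in the authors' deposited table. From day 1 to day 3, XCP1 fell 2.76-fold (q 0.00387 in the authors' deposited table) and XCP2 3.93-fold (q 0.000551 in the authors' deposited table). The FPKM of XCP1 was 0.952 to 1.17 times that of XCP2 in the 4 groups at day 0, 1.48 times at day 1 and 2.11 times at day 3. The coding neighbour of XCP1, AT4G35360, went from 22.2 to 11.7 over the 3 days (q 0.0443 in the authors' deposited table).

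**Figure D2:**
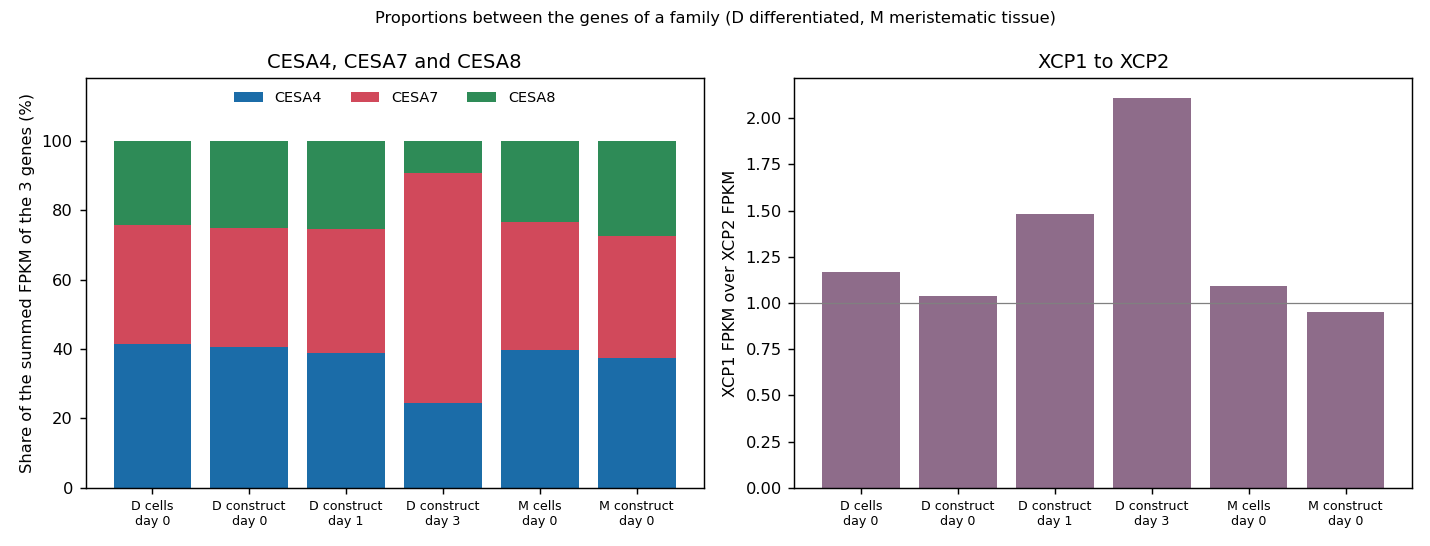
Left, the share of CESA4, CESA7 and CESA8 in their summed pooled FPKM, in percent, for each of the 6 groups; right, XCP1 FPKM divided by XCP2 FPKM. Bars are single pooled values with no error. The day 3 constructs stand apart, with CESA7 at 66.2% and XCP1 at 2.11 times XCP2.

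In these bulk samples, fewer cells of a type and less RNA per cell cannot be told apart. Many markers of other root cell types were lower at day 3 as well. Of 5 endodermis markers, 4 fell from day 0 to day 3, among them the Casparian strip gene CASP1, which went from 451 to 56.0 (q 0.000551 in the authors' deposited table). The other, the suberin gene GPAT5, rose from 0.260 to 14.1 (q 0.00221 in the authors' deposited table). All 4 root hair markers fell, as did 2 of 3 root cap markers and 2 of 5 tested meristem markers. Over all tested entries, 21.2% were lower and 21.0% higher between these days. Of 5 phloem markers, APL and SUC2 were tested and fell. SUC2, the companion cell sucrose transporter, went from 23.3 to 0.277 (q 0.000551 in the authors' deposited table), and the sieve element gene SEOR1 was listed at 0 at day 3. The summed FPKM of the endodermis markers ran from 970 in isolated differentiated cells and 711 in constructs at day 0 to 119 at day 3. The sums of the phloem markers were 28.6, 30.0 and 1.17 in these groups, and those of the 10 xylem genes 274, 373 and 48.4. The part of a shift in cell makeup in these results was not tested.

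Printing itself gave no call among the 10 genes. In differentiated tissue, 0 of the 9 tested genes were called between constructs and isolated cells at day 0, where 12.5% of 17654 entries were called in either direction. Their median log2 ratio was 0.38, beside -0.12 over all entries. XCP2, at 158 in constructs and 105 in cells, had the smallest q of the 10 (0.145 in the authors' deposited table). The 3 CESA genes were 1.28-fold to 1.36-fold higher in constructs and not called. In meristematic tissue 0 of 9 were called, against 10.4% of 17561 entries, with a median log2 ratio of 0.34 beside -0.14. COBL4, at 7.01 in constructs and 4.41 in cells, had the smallest q there (0.153 in the authors' deposited table). VND6 was under the tested level in both comparisons. All 4 root hair markers were lower in constructs than in cells in either tissue, and of 88 further loci for wall and vessel formation, 3 of 74 tested were called in differentiated and 4 of 73 in meristematic tissue. A q above the threshold does not show that the levels were alike, and no interval can be had from pooled values.

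**Figure D3:**
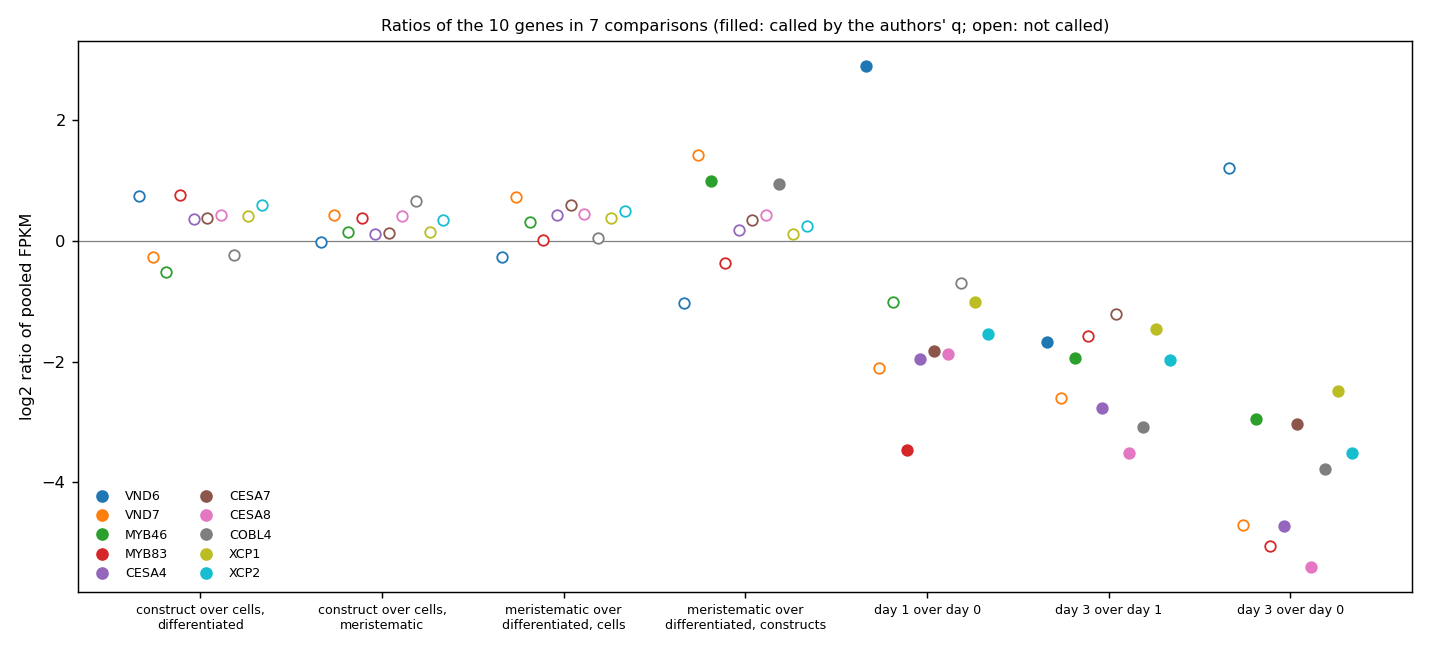
log2 ratio of pooled FPKM (numerator named first) for the 10 genes in each of the 7 comparisons; filled points were called by the authors' q, open points were not, and no error is available. The 4 comparisons within day 0 hold 2 filled points, MYB46 and COBL4 between constructs of the tissues, whereas the 3 comparisons over time hold 7 each.

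Between the tissues, 2 of the 10 genes were called, both in constructs. Among isolated cells, 0 of 9 tested genes were called between tissue labelled meristematic and differentiated tissue, against 7.75% of 17623 entries. All 9 were nominally higher in the meristematic cells, from 1.01-fold for MYB83 to 1.67-fold for VND7, with a median log2 ratio of 0.43 beside 0.12 over all entries. The order of MYB83 and COBL4 turned under each of 3 other scalings. Rescaled to a common sum, the median over all 10 genes was 0.10, against 0.41 as deposited, and that over all entries was -0.19. Among constructs at day 0, MYB46 and COBL4 were higher in the meristematic ones and none of the 9 was lower, where 4.77% of 17627 entries were higher and 4.61% lower. The level of MYB46 was 16.2 FPKM in the meristematic constructs against 8.19 in the differentiated ones (q 0.0275 in the authors' deposited table), and COBL4 had 7.01 and 3.65 (q 0.0473 in the authors' deposited table). VND7, at 3.46 and 1.29, was 2.68-fold higher and not called (q 0.0553 in the authors' deposited table).

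The label meristematic was set against markers of meristem activity. The embryo and stem cell factor BBM was at 0.216 in isolated meristematic and 1.32 in isolated differentiated cells (q 0.0163 in the authors' deposited table), and PLT1 at 0.342 and 1.26 (q 0.0283 in the authors' deposited table). All 6 meristem markers had a lower pooled value in the cells labelled meristematic, and these 2 were called. In this comparison 7.75% of all tested entries were called in either direction. The meristem markers therefore went against the label, though the 2 called ones were at levels near or under 1 FPKM. The cells labelled meristematic include the replicate 3 with 8.34% of its FPKM in the top 10 values. Its part in these differences was not tested. Of 3 root cap markers, 2 were higher in the cells labelled meristematic, BRN1 at 88.4 against 39.0 and BRN2 at 55.3 against 23.0 (q 0.000551 each in the authors' deposited table). The third, SMB, was at 8.48 against 4.62 and was not called.

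Each gene's levels fell in an order across the groups. For VND7, MYB46, CESA4, CESA7, CESA8 and COBL4 the highest pooled value was in meristematic constructs. Which group came second depended on the scaling for CESA4, CESA7, CESA8 and COBL4. As deposited it was isolated meristematic cells, whereas rescaled to a common sum it was differentiated constructs for the 3 CESA genes and isolated differentiated cells for COBL4. XCP1 and XCP2 were also highest in meristematic constructs, followed by differentiated constructs at day 0. MYB83 was highest in differentiated constructs at day 0. Apart from VND6, all 9 were lowest in the day 3 constructs and next lowest at day 1. Within day 0, the 4 comparisons of printing and tissue called no difference between the neighbours they compared. The 2 calls, MYB46 and COBL4 between constructs, set the highest group against the lowest at day 0. The highest group was 6.07 times the lowest for XCP1 and 69.9 times for VND7.

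Outside the 10 genes, 88 further loci of wall formation and xylem were followed in 9 lists. Of these, 77 were tested between day 0 and day 3, with 39 lower and 10 higher (median log2 ratio -1.20). Over all tested entries, 21.2% were lower and 21.0% higher. The share higher was thus below that of all entries. These counts mix unlike lists. Primary wall cellulose gave 6 of the lower calls, and xylem and procambium identity gave 7 of the higher ones. These lists were drawn up with earlier results of these data known, so their counts are descriptions. All 6 genes listed for lignin polymerization were lower at day 3, with a median log2 ratio of -2.99. These bulk values do not show in which cell types the genes fell, in vessels or elsewhere in the root. The laccase LAC4, which oxidizes lignin precursors in xylem walls, went from 9.24 at day 0 to 2.13 at day 1 and 1.02 at day 3 (q 0.000551 at both days in the authors' deposited table). LAC11 went from 10.3 to 2.18 (q 0.000551 in the authors' deposited table) and 0.841 (q 0.00290 in the authors' deposited table), and LAC17 from 7.83 to 2.42 (q 0.00355 in the authors' deposited table) and 0.513 (q 0.00102 in the authors' deposited table). These 3 laccases started at levels close to those of CESA4, CESA7 and CESA8 and, like them, were already lower at day 1. The peroxidases PRX64 and PRX72, much higher genes, were not called at day 1 and went from 109 and 393 at day 0 to 15.6 and 77.6 at day 3 (q 0.000551 each in the authors' deposited table).

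Xylan, the main matrix polymer of these walls, had 4 of 12 synthesis and modification genes lower at day 1 and 7 lower at day 3, with none higher, against 16.4% and 21.2% of all tested entries lower on these days. The backbone gene IRX9 fell from 5.75 to 1.46 at day 1 and 0.522 at day 3 (q 0.00256 at both in the authors' deposited table). The acetyltransferase gene ESK1 fell from 6.02 to 0.496 at day 3 (q 0.000551 in the authors' deposited table), the side chain gene GUX1 from 2.98 to 0.150 (q 0.00538 in the authors' deposited table) and FRA8 from 5.86 to 0.361 (q 0.00144 in the authors' deposited table). Among the 5 not called were IRX10 and IRX14, also backbone genes, at 6.0 and 8.67 at day 0 and 3.83 and 13.9 at day 3. The rest of the 5 had much lower pooled values at day 3 than at day 0. IRX8 was at 0.0427 against 2.97, IRX15-L at 2.64 against 19.5 and GUX2 at 0.102 against 1.20. For printing in differentiated tissue, 11 of the 12 xylan genes had a lower pooled value in constructs than in cells, as did 57.7% of all tested entries. Of the 12, 1 was called, F8H, a homologue of FRA8, at 2.36 against 7.92 (q 0.00102 in the authors' deposited table). Over all tested entries, 12.5% were called in either direction. In meristematic tissue 9 of the 12 had a lower pooled value in constructs, against 60.3% of all tested entries. The calls were F8H, at 3.99 against 9.0 (q 0.00908 in the authors' deposited table), and IRX15-L, at 24.7 against 60.9 (q 0.0195 in the authors' deposited table). In that comparison 10.4% of all tested entries were called in either direction.

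Genes that place the wall bands of vessels had 4 of 8 members lower at day 1 and 6 of 8 at day 3. Of all tested entries, 16.4% and 21.2% were lower on these days. The microtubule protein gene MAP70-5 went from 9.80 to 1.34 and 0.245 (q 0.000551 and 0.00102 in the authors' deposited table), and TED6, a partner of the secondary wall cellulose synthases, from 27.1 to 5.36 and 3.19 (q 0.000551 and 0.00102 in the authors' deposited table). TED7, related to TED6, was higher in differentiated constructs than in cells at day 0, at 20.5 against 6.70 (q 0.00256 in the authors' deposited table), and fell to 1.45 by day 3 (q 0.00256 in the authors' deposited table). ROPGEF4, which sets where pits form, was lower in constructs than in cells in differentiated tissue, at 6.35 against 21.7 (q 0.000551 in the authors' deposited table). At day 3 ROPGEF4 stood at 0.567 (q 0.000551 over day 0 in the authors' deposited table). MIDD1 and ROPGAP3 were not called over time.

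Monolignol enzymes, which make lignin precursors also outside xylem, had 5 of 12 members lower and 1 higher at day 3, against 21.2% and 21.0% of all tested entries. PAL1 and PAL2, the entry enzymes, went from 287 and 149 at day 0 to 86.2 and 38.6 at day 3 (q 0.00144 and 0.000551 in the authors' deposited table). HCT rose from 124 to 241 (q 0.0394 in the authors' deposited table). F5H1, which leads to syringyl units, went from 0.0510 at day 0 to 6.36 at day 1 (q 0.0395 in the authors' deposited table) and 18.1 at day 3 (q 0.00355 over day 1 in the authors' deposited table). The day 3 value of F5H1 over day 0 was not called. Of the 4 loci for xylem cell death and proteolysis, RNS3 and MC9 fell by day 3, from 22.3 to 5.75 (q 0.00387 in the authors' deposited table) and from 13.9 to 4.42 (q 0.0110 in the authors' deposited table). Unlike XCP1 and XCP2, both were called higher in isolated meristematic cells, with MC9 at 77.5 against 20.7 (q 0.000551 in the authors' deposited table). In that comparison 3 of the 4 loci were called higher, where 7.75% of all tested entries were called in either direction. BFN1 stood at 18.2 against 6.01. RNS3 and MC9 are also expressed in the dying root cap. The part of root cap cells in these calls was not tested.

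Of 8 tested genes for primary wall cellulose, 6 were lower at day 1 than at day 0 and 6 at day 3. The shares of all tested entries that were lower were 16.4% and 21.2%. Between day 1 and day 3 none was called, where only 8.48% of all tested entries were lower and 5.88% higher. KOR1 was at 122 and 80.3 on these days and CESA2 at 3.40 and 1.99. CESA6 had a pooled FPKM of 70.2, 24.3 and 23.4 at days 0, 1 and 3, and fell 2.88-fold to day 1 (q 0.000551 in the authors' deposited table). The summed FPKM of the 6 primary wall CESA genes was 232, 111 and 108 on these days. The sum of CESA4, CESA7 and CESA8 was 35.7, 9.65 and 2.26. Secondary wall genes therefore made up 13.3% of the summed FPKM of the 9 CESA genes at day 0, 7.99% at day 1 and 2.06% at day 3. This share was 8.19% in isolated differentiated cells, 9.97% in isolated meristematic cells and 15.2% in meristematic constructs. The difference in course between the kinds of CESA was not tested.

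**Figure D4:**
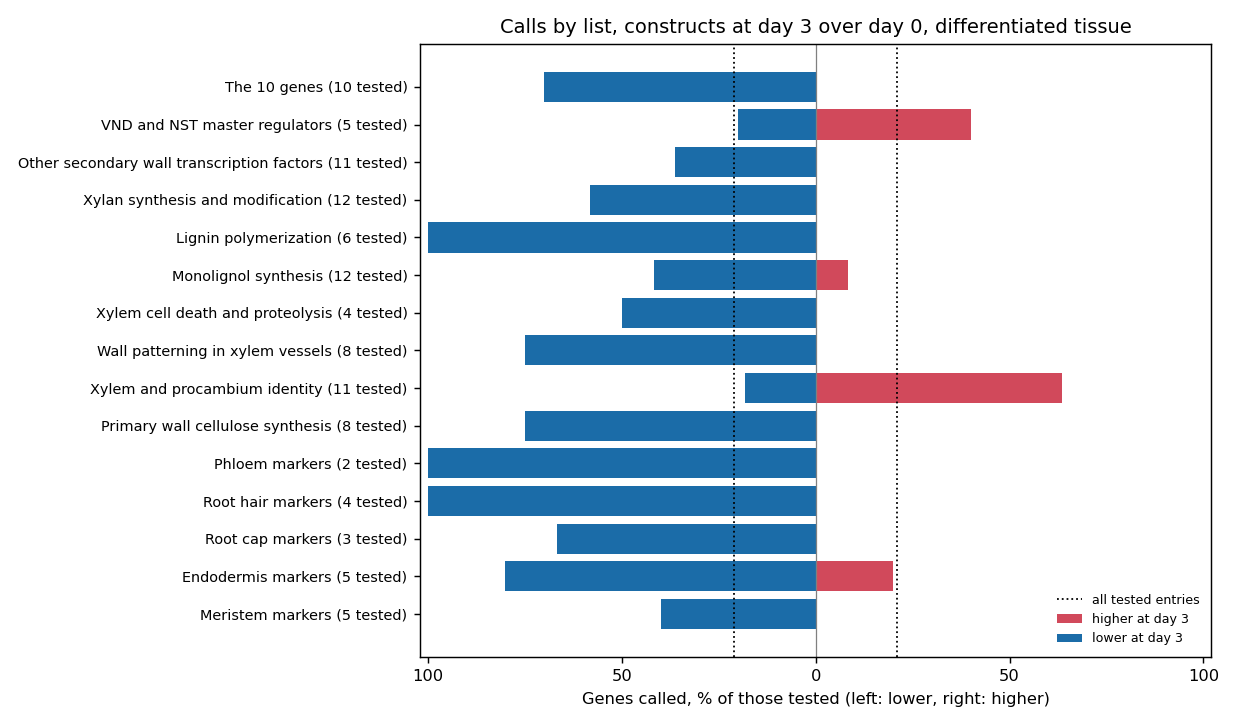
Share of tested genes called lower (left, blue) or higher (right, red) in differentiated constructs at day 3 over day 0, in percent, for the 10 genes and the 14 other lists; dotted lines give the shares over all tested entries, 21.2% lower and 21.0% higher. Lignin polymerization is at 6 of 6 lower, and xylem and procambium identity has 7 of 11 higher.

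Regulators of procambium, the stem cells of the vascular tissue, and of early xylem identity included genes with the opposite course. Of 11 tested members, 7 were higher and 2 lower at day 3 than at day 0 (median log2 ratio 1.5). Over all tested entries, 21.0% were higher and 21.2% lower, so the share of members lower was close to that of all entries. ACL5, a thermospermine synthase that holds back vessel differentiation, went from a pooled FPKM of 1.34 at day 0 to 59.8 at day 1 and 184 at day 3 (q 0.000551 at both days in the authors' deposited table). ATHB8, a HD-ZIP III factor of procambium that activates ACL5, went from 4.43 to 16.2 and 46.1 (q 0.000551 at both days in the authors' deposited table). PXY, the receptor that keeps procambial cells dividing and undifferentiated, went from 1.33 to 11 and 34.9 (q 0.000551 at both days in the authors' deposited table). The related HD-ZIP III gene PHV rose from 1.94 to 9.38 by day 3 (q 0.000551 in the authors' deposited table). WOX4 (0.110 and 2.49) and LHW (5.89 and 9.08, an entry shared with another locus) were not called, and AHP6 was untested. The 2 that fell were TMO5 and T5L1, bHLH factors of the young xylem axis. TMO5 fell from 25.0 to 2.64 and T5L1 from 17.4 to 3.31 by day 3 (q 0.000551 each in the authors' deposited table).

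The remaining VND genes did not follow one course. VND1 went from 1.29 at day 0 to 5.98 at day 3 (q 0.0197 in the authors' deposited table), and VND2 from 2.08 to 8.69 (q 0.00144 in the authors' deposited table). VND4 fell from 3.28 to 0.683 (q 0.00757 in the authors' deposited table). VND3 was at 4.01 at day 1 against 1.73 at day 0 and was not called, and VND5 was at 0.173 at day 3 against 1.77 and was not called either. The NAC genes NST1, NST2 and SND1 (also called NST3) were under the tested level throughout, with NST2 listed at 0 in all constructs. XND1, a NAC factor that represses vessel differentiation, went from 3.16 at day 0 to 0.250 at day 1 (q 0.0224 in the authors' deposited table) and was listed at 0 at day 3 (q 0.000551 in the authors' deposited table). Among the other secondary wall factors, MYB20 went from 5.45 to 0.642 and MYB43 from 9.12 to 1.01 by day 1 (q 0.000551 each in the authors' deposited table). MYB63, a lignin regulator, rose from 13.7 at day 0 to 34.9 at day 1 (q 0.000551 in the authors' deposited table) and was at 24.9 at day 3, not called against day 0.

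**Figure D5:**
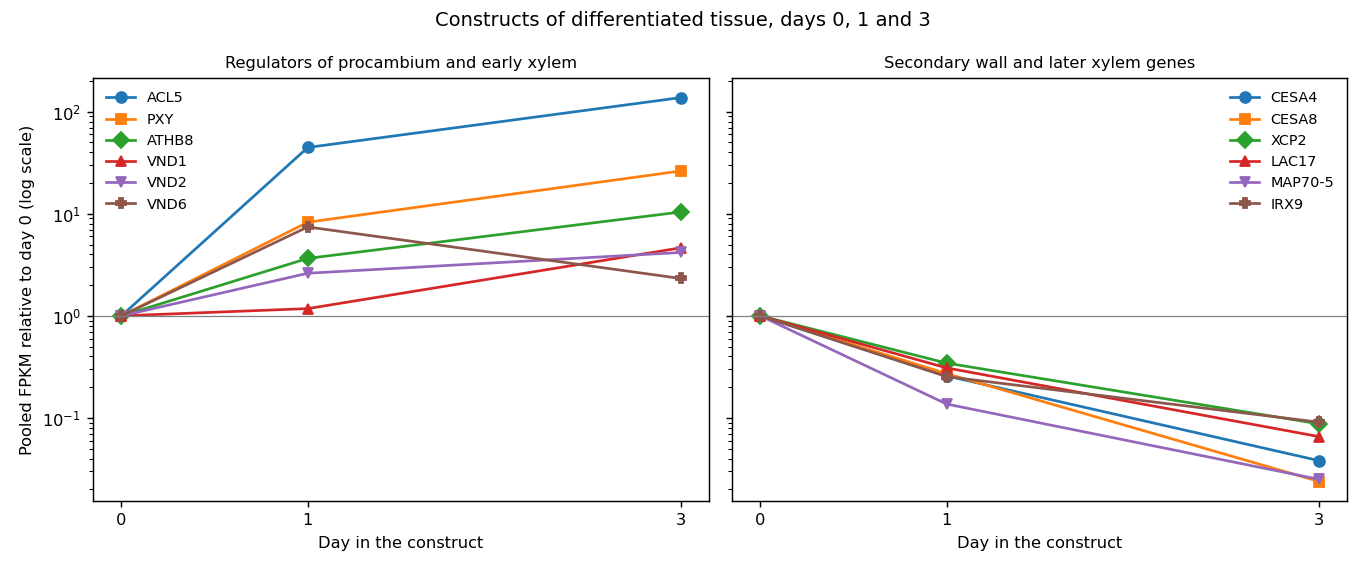
Pooled FPKM relative to day 0 (log axis) against day in the construct, differentiated tissue; left, 6 regulators, right, 6 secondary wall and vessel genes, both sets picked for the drawing after their values were seen. Points are pooled values with no error. ACL5 reaches 138 times its day 0 level at day 3, VND6 peaks at day 1 and is lower at day 3, and the genes on the right lie below 1 at both later days.

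Across the 6 groups, the profiles of single members were set against the mean standardized profile of the other 9 on the log2(FPKM + 1) scale. Pearson's r was 0.992 for CESA4, 0.976 for CESA7, 0.998 for CESA8, 0.993 for XCP1 and 0.996 for XCP2. It was 0.966 for MYB46, 0.976 for COBL4, 0.896 for VND7 and 0.879 for MYB83, and -0.677 for VND6. These coefficients describe 6 pooled points, of which the 2 cultured groups set most of the range. Of 4716 other genes with a symbol, an FPKM of at least 5 in the highest group and a log2 range of at least 1, 385 (8.16%) had an r over 0.95 with the mean profile of the 10 genes, so such a profile was common. The 6 nearest were FIB4 (AT3G23400, r 0.999), a plastid lipid-associated protein gene, FBS1 (AT1G61340, r 0.997), an F-box gene induced by stress, CAT2 (AT4G35090, r 0.997), a catalase gene, WAVH2 (AT5G65683, r 0.996), EHB1 (AT1G70800, r 0.996) and SCL13 (AT4G17230, r 0.995). WAVH2 had a pooled FPKM of 63.5, 13.4 and 2.72 at days 0, 1 and 3.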

How the data were processed

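Poly(A) RNA of 17 libraries was sequenced paired-end with a directional kit, per the labels' protocols. HISAT2 and Cufflinks are named in the submitters' processing notes, with no versions. The sources used here do not name the genome build or the use of strand in counting. No coordinates or sequences are printed for that reason. Gene names and overlaps came from the TAIR10.1 annotation of RefSeq. The authors deposited pooled FPKM per group, log2 ratios for 7 comparisons, with a placeholder where a group is at 0, and a q-value for each. The comparison of meristematic with differentiated constructs is the reverse of the deposited one. A second deposited table holds FPKM per library without gene names.

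Line by line, the library columns correlated at a median r of 0.290 over 136 pairs, against 0.998 after sorting each column and 0.942 between the group columns over 15 pairs. They were therefore used only for sums. The limma fits, with and without a replicate block, and the leave-one-out fits were not run. The 10 genes matched by locus, as did all 111 loci of the other 14 lists, of which 2 stood in joint entries. Ratios were computed from pooled FPKM with Python 3.11.15, numpy 2.4.6 and pandas 2.3.3 and checked on simulated data. Called means a deposited q-value under 0.05 and an FPKM of at least 1 in 1 or both groups. The genes and lists were chosen with earlier results of these data known. Named genes are the 10, up to 6 called genes per list with the smallest q, markers at 0, and the 6 genes most alike in profile. The other genes named, including uncalled ones and overlapping neighbours, were chosen after their values were seen. Alternatives were other q and FPKM thresholds, 3 scalings, 2 pseudocounts and Spearman correlation.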

Additional observations from a re-analysis of the deposited data

How the results depend on the processing

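Each comparison was recomputed with a q threshold of 0.01, with no FPKM minimum and with a minimum of 5. At q under 0.01 the 2 calls between meristematic and differentiated constructs became 0, and the 7 between day 1 and day 3 became 4; with the FPKM minimum of 5 the latter became 3. At either setting, 6 of the 7 calls of day 1 over day 0 and 6 of the 7 of day 3 over day 0 were left in number, and no FPKM minimum changed no count. Of the 70 log2 ratios of the 10 genes, rescaling to TPM and median-ratio scaling moved 0 by over 1.5-fold, quantile normalization 6, a pseudocount of 1 moved 18 and a pseudocount of 0.1 moved 4. No called ratio changed sign, and 0 of 188 calls in the other lists turned under the 3 scalings. Under each scaling, 3 uncalled ratios changed sign: VND6 for printing in meristematic tissue, and MYB83 and COBL4 between isolated cells. Rescaling to TPM shifted the median of all entries by 0.34 for printing in meristematic tissue, by -0.31 between isolated cells and by 0.32 for day 3 over day 0, on the log2 scale. The median log2 ratio of the 10 genes at day 3 over day 0 ran from -3.67 to -2.28 over the settings. No paired analysis was possible because the library columns could not be tied to genes; for that reason no library could be left out either. With 2 libraries at day 3 and no read totals, the precision of low values is unknown, which bears most on VND7 and MYB83.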
